A study of Mus musculus with 3 samples.

Results

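The MHC class I and immunoproteasome genes are a set of 10 genes, taken by symbol out of the 31053 genes in the deposited matrices, and all 10 were found. B2m encodes beta-2-microglobulin, the light chain of class I molecules. H2-D1, H2-K1 and H2-T23 encode heavy chains, the first pair classical and the last the nonclassical Qa-1 molecule. Psmb8, Psmb9 and Psmb10 are the inducible catalytic subunits of the proteasome, Tap1 and Tap2 form the peptide transporter of the endoplasmic reticulum, and Tapbp is tapasin, which bridges that transporter to empty class I molecules. The genes were chosen as a set by their function, with earlier results of these data known.

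The measurements are spatial transcriptomes of 3 sections of fresh frozen brain from C57BL/6J mice, 1 section in each of 3 groups. Y-Ctrl and O-Ctrl carry the treatment label control and O-Ex carries the label exercise. The series asks how exercise acts on the aging brain, so Y and O were read as young and old. The labels used here state no age, sex, exercise regimen or count of animals. Each capture spot is a small area of tissue that can hold parts of several cells. Values are therefore of spots, and fewer cells of a type cannot be told apart from less RNA per cell.

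Class I molecules display short peptides from the cell's own proteins to CD8 T cells and, for Qa-1, to receptors of NK and T cells. The proteasome cuts proteins into peptides, and interferon-gamma makes cells replace its constitutive catalytic subunits Psmb6, Psmb7 and Psmb5 with Psmb9, Psmb10 and Psmb8. The TAP transporter carries the peptides into the endoplasmic reticulum, where tapasin helps load them onto a heavy chain paired with beta-2-microglobulin. In healthy brain the class I pathway is low in most neurons and higher in microglia, vessels and the brain's borders.

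In mm10, B2m (ENSMUSG00000060802) lies on chromosome 2 at 122147686 to 122153083, and Psmb10 (ENSMUSG00000031897) on chromosome 8 at 105935735 to 105938444. The other 8 genes lie on chromosome 17, in the mouse MHC. Tapbp (ENSMUSG00000024308) spans 33915899 to 33929292, H2-K1 (ENSMUSG00000061232) spans 33996017 to 34000347, H2-D1 (ENSMUSG00000073411) spans 35262730 to 35267499 and H2-T23 (ENSMUSG00000067212) spans 36029773 to 36032855. Psmb9 (ENSMUSG00000096727; 34181987 to 34187764), Tap1 (ENSMUSG00000037321; 34187553 to 34197225), Psmb8 (ENSMUSG00000024338; 34197721 to 34201454) and Tap2 (ENSMUSG00000024339; 34203527 to 34216321) follow each other within 34335 bases. Psmb9 and Tap1 are transcribed away from each other, and their first exons overlap on opposite strands. In RefSeq 225 bases lie between their start sites.

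Promoter sequences are shown for the members in which a short motif bound by interferon regulatory factors or NF-kappa-B was found, because interferon-induced transcription of this pathway runs through such sites. RefSeq windows of 250 bases before the start site (GRCm38.p6, the assembly of mm10) were present for 9 of the 10 members, all but Tap2. In the windows of Psmb8, Psmb9, Psmb10, Tap1 and Tapbp no such motif was found. The motifs were chosen after the windows had been seen, and both strands were searched. Each line reads 5′ to 3′ on the gene's strand, with the matched motifs in capitals.
H2-K1: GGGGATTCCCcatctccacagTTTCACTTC
H2-D1: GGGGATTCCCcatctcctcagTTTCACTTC
B2m: catGAAACTGAAAatgGGAAAGTCCCttt
H2-T23: cctactgcTTTCTCTTTCataaagac

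The H2-K1 stretch is at chr17:34000429-34000458 on the minus strand, the H2-D1 stretch at chr17:35262923-35262952 on the plus strand, and they share 29 of 30 bases, differing by A18T counted from 1 at the 5′ end of the H2-K1 line. Both hold a kappa-B motif (GGG, any 2 bases, TT, any base, CC) and, on the opposite strand, GAANNGAAA, a spaced form of the site for interferon regulatory factors. The B2m stretch, at chr2:122147545-122147573 on the plus strand, holds the interferon-stimulated response element (GAAA, any 2 bases, GAAA) and a kappa-B motif on the opposite strand, with no overlap between them. H2-T23, at chr17:36032808-36032833 on the minus strand, has the interferon-stimulated response element on the opposite strand. Of all 32851 windows of this length in the table, 2.98% held the response element, 6.31% held GAANNGAAA and 4.11% held the kappa-B motif. In GENCODE the H2-D1 and H2-T23 stretches fall within exons of transcripts that start farther upstream than the RefSeq start, and the H2-K1 and B2m stretches fall in no exon. These are matches of letters and were not tied to any binding measured here.

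Depth was similar across the sections. From here on, 3 values in a row are those of Y-Ctrl, O-Ctrl and O-Ex, in this order. Unique molecular identifiers (UMIs, 1 per captured RNA molecule) totalled 62348064, 58234443 and 53196124. The sections had 3409, 3498 and 3332 spots of at least 3000 UMIs, and their median spot held 15718, 14900 and 13685 UMIs. Levels are UMIs of a gene per 1000000 UMIs of these spots (CPM). Choroid plexus markers summed to 4053, 4948 and 12720 CPM, blood markers to 1134, 1100 and 2040 CPM and markers of B and plasma cells to 3.76, 1.75 and 54.1 CPM, so O-Ex held more RNA of these kinds. For this reason each ratio between sections was taken over the whole section and also matched. A matched ratio is the equal-weight mean over 15 groups of spots scored on fixed regional markers. Matching did not remove the excess in O-Ex. Over O-Ctrl, the median log2 ratio of blood markers was 0.87 over the whole section and 0.99 matched. That of choroid plexus markers was 1.32 and 0.59, and that of the 1 tested B and plasma cell gene 4.85 and 2.75. The groups are named for the markers they were scored on. Some were not alike across sections: in their own groups hypothalamic markers summed to 7544, 2070 and 1690 CPM and habenular markers to 1147, 342 and 264 CPM, and choroid plexus markers in the ependyma group to 21780, 6205 and 10342.5 CPM. Each group has equal weight in the matched ratios. One of them, scored on fibroblast markers of the meninges, had 4 haemoglobin genes and only 2 of its own markers among its 10 leading genes, so it is called the Ptgds- and Myoc-led group.

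With 1 section in a group, no difference has a replicate check and no test was possible; section, animal and condition cannot be told apart. Brackets give exact 95% Poisson intervals, which cover counting error only. A log2 ratio is of CPM plus 1, which understates the differences of genes with few counts, and 1.5-fold was the size used to call a gene higher or lower. All 10 members passed the filter of a mean of 2 CPM, and 12720 genes did in all.

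Between the control sections, O-Ctrl was higher than Y-Ctrl for nearly the whole pathway. The inducible subunits Psmb8 and Psmb9 and the transporter subunit Tap1 differed most, by more than 2-fold. Heavy chains, light chain, tapasin and Tap2 differed by 1.35 to 1.58-fold, and Psmb10 by 1.05-fold. Psmb8, Psmb9, Tap1, Tap2 and Tapbp were at least 1.5-fold higher over the whole section, 5 of 10 members, while 1.08% of all tested genes were. In the matched ratios the 4 members past this size were H2-T23, Psmb8, Psmb9 and Tap1, against 0.896% of all genes. None was 1.5-fold lower, where 0.503% of all genes were over the whole section and 0.314% in the matched ratios. By counting intervals, 9 members were higher and apart, all but Psmb10, against 13.3% of all genes, and none was lower, against 14.6%. The median ratio of the members was 0.59 on the log2 scale and that of all tested genes -0.01.

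The catalytic subunits behaved unequally. Psmb8 stood at 6.05 CPM [5.45 to 6.70], 17.4 [16.3 to 18.5] and 12.8 [11.8 to 13.8]. Psmb9 stood at 2.53 CPM [2.15 to 2.97], 8.54 [7.80 to 9.34] and 4.86 [4.28 to 5.50]. For both genes the 3 intervals were apart, with O-Ex between the controls. Their log2 ratios of O-Ctrl over Y-Ctrl were 1.38 and 1.43 over the whole section and 1.25 and 1.47 matched. Psmb10 stood at 85.6 CPM [83.3 to 88.0], 90.3 [87.9 to 92.8] and 84.5 [82.0 to 87.1], so the intervals of the control sections overlapped. Only Psmb10 lies outside the MHC among the inducible subunits.

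**Figure D1:**
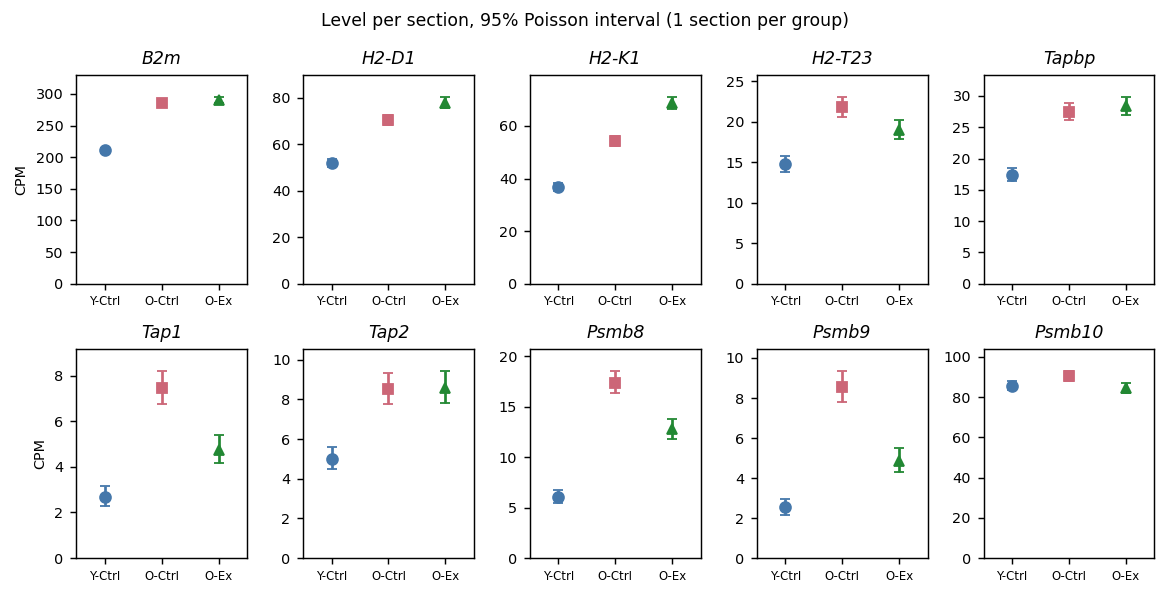
Level of each of the 10 genes in CPM (vertical axes, each starting at 0 and with its own scale) in the 3 sections; points are section values and bars 95% Poisson intervals, with 1 section per group. Psmb8, Psmb9 and Tap1 are highest in O-Ctrl with O-Ex between the controls, H2-K1 is highest in O-Ex, and Psmb10 differs least.

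Set against the constitutive subunit that each one replaces, the same unevenness was seen. Psmb8 gave 2.62 UMIs per 100 UMIs of Psmb5 [2.35 to 2.90], 7.46 [6.99 to 7.96] and 5.68 [5.24 to 6.14]. Psmb9 gave 1.18 [0.999 to 1.38], 3.79 [3.46 to 4.15] and 2.36 [2.08 to 2.68] per 100 of Psmb6. Psmb10 gave 45.9 [44.4 to 47.5], 48.9 [47.3 to 50.6] and 44.6 [43.0 to 46.2] per 100 of Psmb7. These ratios compare sections for a given pair and do not compare pairs, since the values were not scaled by transcript length. The constitutive subunits themselves differed little: Psmb5 was at 231, 233 and 225 CPM, Psmb6 at 215, 225 and 206 CPM and Psmb7 at 187, 185 and 190 CPM.

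**Figure D2:**
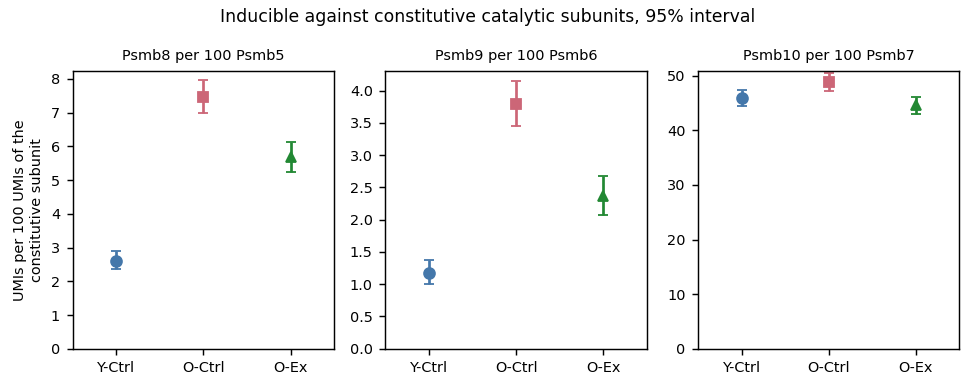
UMIs of each inducible subunit per 100 UMIs of its constitutive counterpart (vertical axes from 0) in the 3 sections, with 95% intervals from the counts. The values for Psmb8 and Psmb9 are separate in all 3 sections, lowest in Y-Ctrl and highest in O-Ctrl, while Psmb10 stays between 44.6 and 48.9.

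The subunits of the peptide transporter parted from each other. Tap1 stood at 2.70 CPM [2.30 to 3.14], 7.46 [6.76 to 8.20] and 4.76 [4.19 to 5.40], again with 3 separate intervals. Tap2 stood at 5.02 CPM [4.47 to 5.61], 8.53 [7.79 to 9.32] and 8.58 [7.80 to 9.42], with the O sections alike within counting error and above Y-Ctrl. Tapasin followed Tap2: Tapbp stood at 17.4 CPM [16.4 to 18.5], 27.4 [26.1 to 28.8] and 28.3 [26.9 to 29.8]. Exons of Tapbp overlap those of Zbtb22 on the same strand, and the first exons of Psmb9 and Tap1 overlap on opposite strands. The labels and headers do not say how reads there were assigned.

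Of the molecules that carry the peptides, B2m stood at 211 CPM [207 to 214], 286 [282 to 290.3] and 291 [286 to 295]. H2-D1 stood at 51.9 CPM [50.1 to 53.7], 70.6 [68.4 to 72.8] and 77.9 [75.5 to 80.4]. H2-K1 stood at 36.6 CPM [35.1 to 38.2], 54.4 [52.5 to 56.3] and 68.7 [66.5 to 71.0]. Both classical heavy chains were thus lowest in Y-Ctrl and highest in O-Ex, and B2m did not separate the O sections. The nonclassical H2-T23 had another order, at 14.8 CPM [13.9 to 15.8], 21.8 [20.6 to 23.1] and 19.0 [17.8 to 20.2]. In the last 500 bases of the H2-T23 transcript examined, 85 of 426 windows of 75 bases also occur in transcripts of other genes, among them H2-T-ps, so the counts of H2-T23 are less certain. The other 9 members shared no such window.

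The exercised section was compared with O-Ctrl next, and here the members did not all differ in the same direction. Psmb9 and Tap1 were lower in O-Ex, as were Psmb8 and H2-T23 by smaller sizes, whereas H2-K1 and H2-D1 were higher. The intervals of B2m, Tap2 and Tapbp overlapped. At 1.5-fold, 1 member was lower over the whole section, Psmb9, against 0.291% of all tested genes, and 2 members were lower in the matched ratios, Psmb9 and Tap1, against 0.244%. No member was 1.5-fold higher, where 1.65% of all genes were over the whole section and 0.519% in the matched ratios. By counting intervals, 5 of 10 members were lower and apart (H2-T23, Psmb8, Psmb9, Psmb10 and Tap1), against 8.32% of all genes. Only 2 of 10 were higher and apart (H2-D1 and H2-K1), a smaller share than the 28.9% of all genes.

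The log2 ratios of O-Ex over O-Ctrl were -0.70 for Psmb9, -0.55 for Tap1, -0.42 for Psmb8 and -0.19 for H2-T23 over the whole section, and -0.82, -0.66, -0.49 and -0.31 matched. Those of H2-K1 and H2-D1 were 0.33 and 0.14, and 0.28 and 0.15 matched. The median of all tested genes was itself 0.08 over the whole section and 0.09 matched, so the ratio of H2-D1 lay close to that of the ordinary gene, with 33.5% of genes at or above it over the whole section. H2-K1 had 7.15% of genes at or above it. Psmb9 had 0.236% of genes at or below it, Tap1 0.322% and Psmb8 0.605%. Leaving out the spots of the choroid plexus, ependyma, Ptgds- and Myoc-led and arterial smooth muscle groups, an alternative chosen after the data were seen, brought the genes 1.5-fold higher in O-Ex from 210 to 55, and gave ratios of -0.83 for Psmb9, -0.60 for Tap1, -0.54 for Psmb8 and 0.26 for H2-K1.

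**Figure D3:**
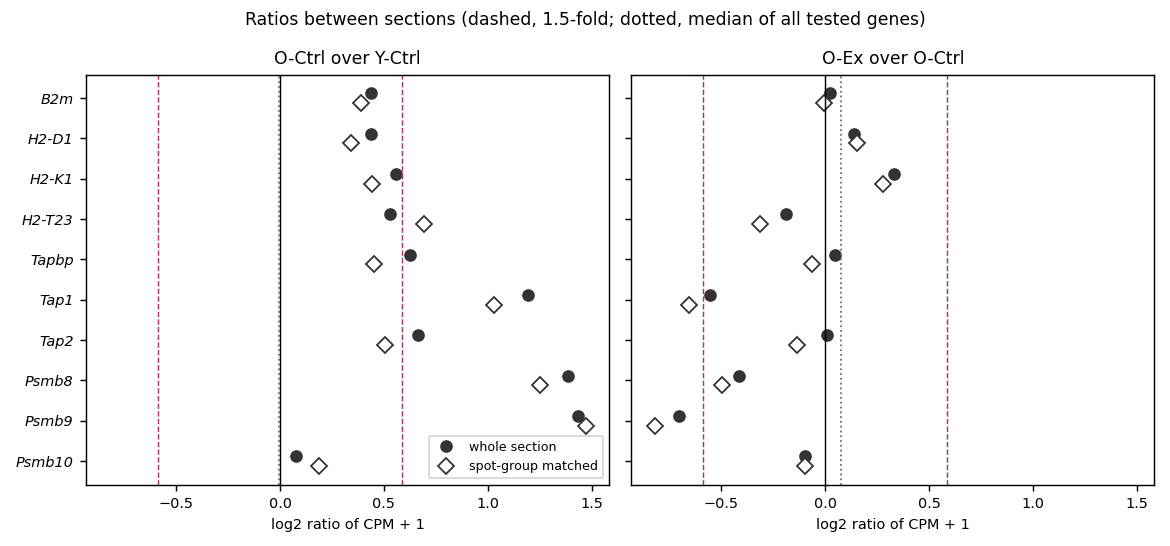
log2 ratios of CPM + 1 (horizontal axis) for the 10 genes, O-Ctrl over Y-Ctrl on the left and O-Ex over O-Ctrl on the right; filled circles are whole sections, open diamonds the mean over 15 matched spot groups, dashed lines 1.5-fold and dotted lines the median of all tested genes. Psmb8, Psmb9 and Tap1 lie above 1 on the left and below -0.4 on the right, and H2-K1 is the highest on the right.

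O-Ex was also set beside Y-Ctrl, which is the comparison of an exercised O section with a control Y section and shares both sections with the comparisons above. There H2-K1, Psmb8, Psmb9, Tap1, Tap2 and Tapbp were at least 1.5-fold higher over the whole section, 6 of 10 members against 3.54% of all genes. H2-K1, Psmb8 and Psmb9 were so in the matched ratios, against 1.72%. H2-K1 had a log2 ratio of 0.89 over the whole section and 0.72 matched, and Psmb8 of 0.97 and 0.76. No member was 1.5-fold lower, where 0.676% and 0.307% of all genes were. By counting intervals, 9 members were higher and apart, all but Psmb10, against 31.6% of all genes, and none was lower, against 13.1%.

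Averaged over the sections, 9 of the 10 genes had their highest level in a border group (choroid plexus, ependyma, Ptgds- and Myoc-led or arterial smooth muscle), and Psmb10 had its highest in spots scored on hypothalamic markers. B2m was highest in the arterial smooth muscle group, at 443, 637 and 576 CPM, followed by the Ptgds- and Myoc-led group at 414, 564 and 653. The choroid plexus group, at 459, 575 and 377, and white matter, at 369.9, 495 and 489, came next. The 10 neuronal groups lay between 135 and 237 CPM in the first section, 206 and 288 in the second, and 199 and 284 in the last, with cortical layer 4 the highest of them in each. Ordered by B2m within a section, 12, 12 and 11 of the 14 pairs of neighbouring groups had overlapping intervals. For Psmb8, Psmb9, Psmb10, Tap1, Tap2 and H2-T23 all 14 pairs overlapped in every section, so the order of neighbours was not resolved for them.

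The classical heavy chains had a steeper step to the borders. The median level of H2-K1 over the 4 border groups was 4.52 times the median over the 10 neuronal groups in Y-Ctrl, and 4.11 and 3.32 times in the O sections. For H2-D1 these figures were 3.70, 3.33 and 2.27, and for B2m 2.48, 2.53 and 2.01. H2-T23 was unlike the other heavy chains in that layer 6 of the cortex ranked 3 among the 15 groups, at 38.8, 35.6 and 29.2 CPM, against 6.08, 8.88 and 10.8 in CA1 of the hippocampus. The leading genes of the layer 6 spots were Rprm, Trbc2, 3110035E14Rik, Ctgf and Ctxn3.

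Psmb8 and Psmb9 were higher in every border group than in any neuronal group of the same section. Tap1 followed this map less closely. In white matter of Y-Ctrl it stood at 1.87 CPM, against a median of 1.92 over the neuronal groups. In O-Ctrl its lowest border group, at 7.78 CPM, was under its highest neuronal group, at 8.32. Psmb8 in the Ptgds- and Myoc-led group stood at 23.3 CPM [15.5 to 33.7], 69.9 [55.2 to 87.2] and 36.4 [26.1 to 49.3]. In white matter it stood at 12.5 [9.50 to 16.0], 31.4 [26.9 to 36.4] and 22.2 [17.4 to 27.8], and in CA1 at 3.97, 8.51 and 4.65 CPM. Over 45 points, which are the 15 groups in 3 sections and share libraries and tissue makeup, the log2 levels of the 9 members other than Psmb10 correlated with each other at Pearson r of 0.62 to 0.95 in 36 pairs. The 9 pairs with Psmb10 gave -0.37 to 0.15. Averaged over the sections, Psmb10 was lowest in the choroid plexus group, at 32.6, 45.9 and 58.1 CPM, although white matter was lower in O-Ex, at 54.5 CPM, with overlapping intervals. It stood at 113, 120.3 and 119 CPM in the hypothalamic group.

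**Figure D4:**
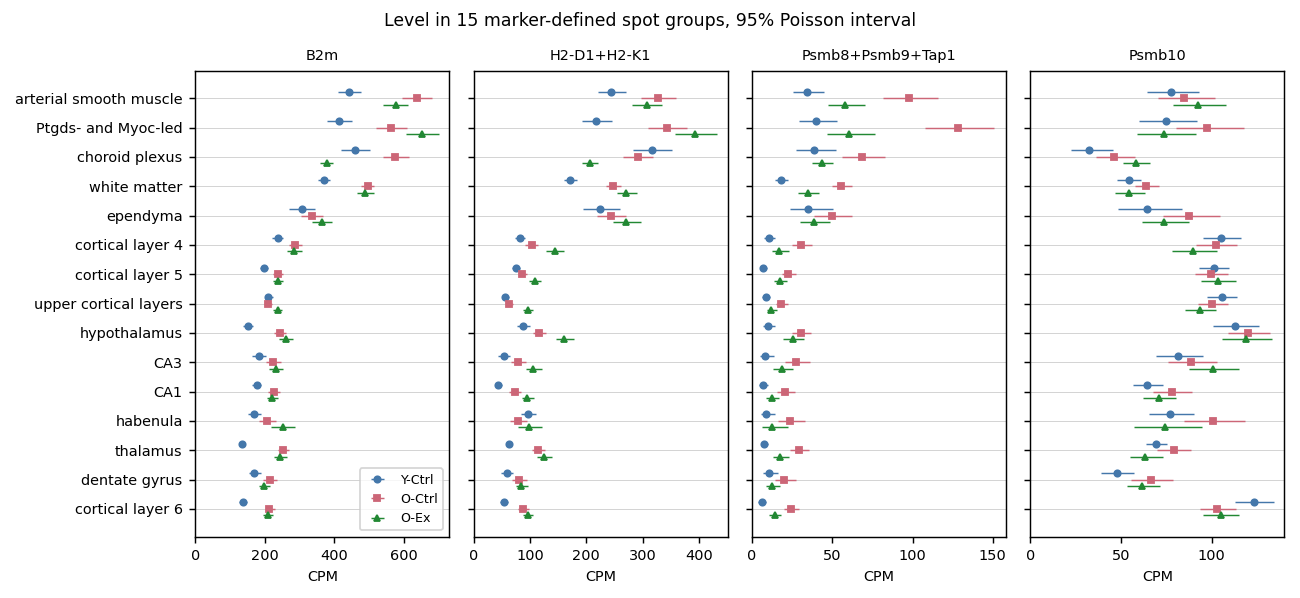
Level in CPM (horizontal axes from 0) of B2m, of H2-D1 and H2-K1 summed, of Psmb8, Psmb9 and Tap1 summed, and of Psmb10, in 15 spot groups ordered by B2m; colours and marker shapes are the 3 sections and bars 95% Poisson intervals. In the first 3 panels the border groups and white matter lie above the neuronal groups, and in the panel of Psmb10 they do not.

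The difference between the control sections was spread over the spot groups. Psmb8 was higher in O-Ctrl than in Y-Ctrl in 15 of 15 groups, with intervals apart in 10, and Psmb9 in 15 of 15, with intervals apart in 9. B2m was higher in 14 of 15, with 12 apart. Groups of spots in the same section are not replicates, and these counts describe where in the section the difference was found. Thalamus had the widest spread of members at this size, with 8 of 10 at least 1.5-fold higher against 3.55% of all genes: B2m there stood at 135 CPM [127 to 143] in Y-Ctrl and 253 [237 to 270.2] in O-Ctrl, and H2-D1 at 33.3 and 61.7 CPM. The thalamic group held 539 spots in Y-Ctrl and 253 in O-Ctrl. Microglial markers in its spots summed to 367 and 632 CPM, and the part of microglia in the result was not tested.

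In O-Ex over O-Ctrl, Psmb9 and Tap1 were lower in 15 of 15 groups, with intervals apart in 1 and 3 of them, and Psmb8 was lower in 14 of 15, with 1 apart. Single groups held few counts, so the 3 genes were also summed, a choice made after their values were seen. The sum was lower in 15 of 15 groups, with intervals apart in 7. Its direction follows from the genes picked for it, so the sum gives no separate support. Of all tested genes, 73.4% had a matched ratio above 0 in this comparison and 26.6% had one below 0. H2-K1 was higher in 13 of 15 groups, with intervals apart in cortical layer 4 (38.7 CPM [32.1 to 46.3] in O-Ctrl, against 64.3 [54.4 to 75.4]), cortical layer 5, the upper cortical layers and the hypothalamic group. It was lower, with intervals apart, in the choroid plexus group, as H2-D1 and B2m were. B2m there stood at 575 CPM [539 to 614] in O-Ctrl, against 377 [359 to 396] with exercise.

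**Figure D5:**
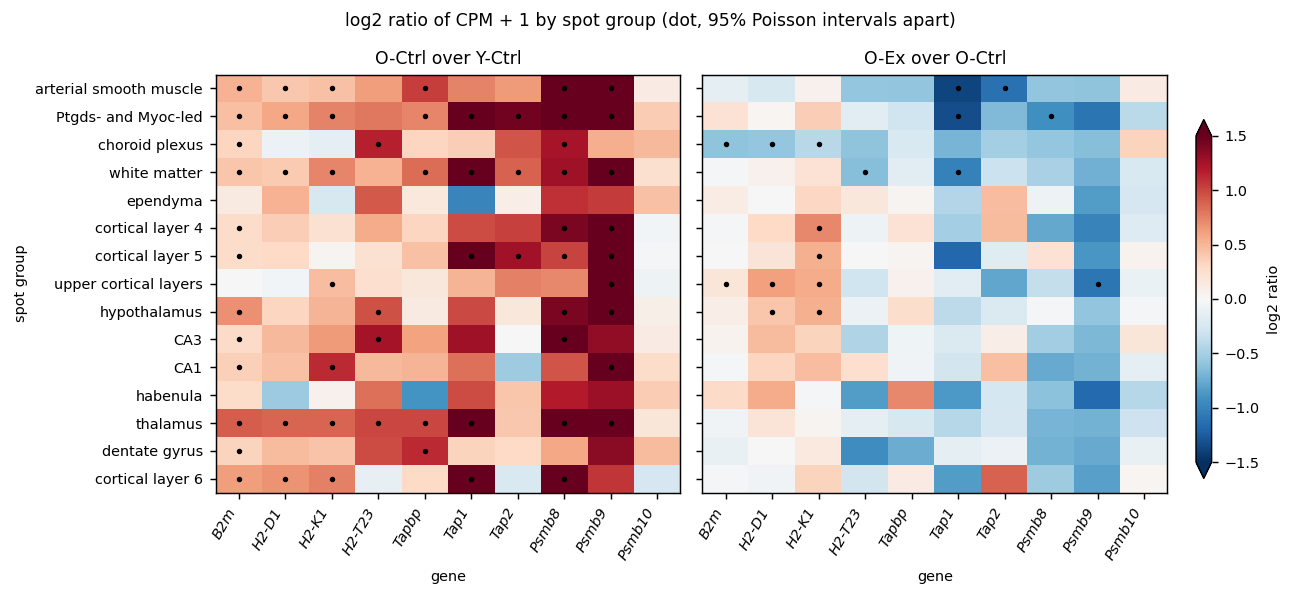
log2 ratios of CPM + 1 (colour, red higher and blue lower, cut off at 1.5 either way) of the 10 genes in the 15 spot groups, O-Ctrl over Y-Ctrl on the left and O-Ex over O-Ctrl on the right; a dot marks 95% Poisson intervals that do not overlap. The left panel is mostly red and palest for Psmb10; on the right Psmb9 and Tap1 are blue in all 15 groups, Psmb8 in 14, and H2-K1 is red in 13.

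Microglia and vessels, which express this pathway, were read from their own markers. The 9 microglial markers were all detected in each section and summed to 446, 594 and 626 CPM. Of them C1qa, C1qb and Trem2 were at least 1.5-fold higher in O-Ctrl than in Y-Ctrl over the whole section, against 1.08% of all tested genes. In the matched ratios 2 of the 9 markers were, against 0.896%. P2ry12, a marker of resting microglia, stood at 31.22, 24.02 and 22.10 CPM. No microglial marker passed this size between O-Ex and O-Ctrl. The 8 endothelial markers summed to 200.1, 162 and 190.5 CPM, and the 6 markers of border macrophages to 6.33, 6.42 and 8.75 CPM, with none at 0. For O-Ex over O-Ctrl, the median log2 ratio was 0.04 for the microglial and 0.19 for the endothelial markers, against 0.08 for all tested genes. The part of these cells in the results was not tested.

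Members were denser where microglial markers were. In the 25% of O-Ctrl spots with the largest microglial share of UMIs, Psmb8 stood at 31.9 CPM [28.6 to 35.4], against 10.0 [8.58 to 11.6] in the lowest 25%, and H2-K1 at 94.8 [89.2 to 100.7] against 30.8 [28.3 to 33.6]. In the top 25% of O-Ex, Psmb8 stood at 23.4 CPM [20.5 to 26.6] and H2-K1 at 124 [117 to 131]. In the top 25% of each section, Psmb8 was thus lower and H2-K1 higher in O-Ex than in O-Ctrl. The spots were ranked within each section, so microglial content and region were not matched between sections. The lowest 25% gave the same order, with Psmb8 at 10.0 and 6.38 CPM and H2-K1 at 30.8 and 41.1 CPM in O-Ctrl and O-Ex. Psmb10 had 76.3 CPM in the top and 97.6 CPM in the lowest 25% of O-Ctrl. Depth differed as well, with a median of 11643 UMIs a spot in the top and 18828 in the lowest 25% of O-Ctrl. In O-Ex these medians were 10738 and 17302 UMIs.

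Spots rich in endothelial markers gave the same pattern. In the 25% of O-Ctrl spots with the largest endothelial share, Psmb8 stood at 34.5 CPM [31.3 to 37.9], against 11.9 [10.1 to 13.9] in the lowest 25%, and H2-K1 at 99.3 [93.8 to 105] against 38.8 [35.5 to 42.3]. The median depth of these spots was 12902 and 12772 UMIs in O-Ctrl, but 11583 and 8510 UMIs in O-Ex. Endothelial markers had a median of 2 UMIs a spot in O-Ctrl, and 745 of its spots had none. In O-Ex the top 25% had Psmb8 at 20.6 CPM [18.0 to 23.5] and H2-K1 at 122 [116 to 129]. Psmb10 stood at 90.4 and 90.0 CPM in the top and lowest 25% of O-Ctrl. Spots near vessels and spots near microglia were not separated here.

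The rest of the pathway was read from lists whose members were named with earlier results of these data known. Of 11 other class I and class I-like genes, 7 were tested and H2-Q6 and H2-Q7 were 1.5-fold higher in O-Ctrl than in Y-Ctrl. H2-Q7, a heavy chain of the Qa-2 molecule, stood at 2.09, 6.35 and 6.52 CPM, and H2-Q6 at 1.31, 3.32 and 3.68 CPM. Their log2 ratios of O-Ex over O-Ctrl were 0.03 and 0.12 over the whole section and -0.22 and 0.16 matched, so the sign for H2-Q7 turned with the matching. None of the 6 genes of loading and trimming passed 1.5-fold against O-Ctrl. The chaperone Calr, which holds unloaded class I molecules, stood at 210, 244 and 347 CPM, and the partner Canx at 305, 310 and 339.7.

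Among other proteasome genes none passed 1.5-fold in these comparisons. This held for the 3 constitutive catalytic subunits, the 11 other 20S subunits and the 8 genes of the PA28 activator and of assembly. Their median log2 ratios of O-Ctrl over Y-Ctrl were 0.01, 0.01 and 0.02. The interferon-inducible activator subunits Psme1 and Psme2 had ratios of 0.24 and 0.29, with Psme1 at 56.1, 66.5 and 63.0 CPM.

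Of 15 regulators, 13 were tested. Irf1, an interferon regulatory factor that activates class I genes, was 1.5-fold higher in O-Ctrl than in Y-Ctrl. Irf1 stood at 3.497, 8.087 and 4.898 CPM, and was also the 1 regulator 1.5-fold lower in O-Ex than in O-Ctrl. Nlrc5, the transactivator of class I genes, was under the filter at 0.294 CPM, 1.58 and 0.964, in the same order as Psmb8. The receptor genes Ifngr1 and Ifngr2 had ratios of 0.00 and -0.09 for O-Ctrl over Y-Ctrl, and Ifng itself was at 0.0490, 0.0877 and 0.0193 CPM, at or near the 3 UMIs per section used as the limit of detection.

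All 8 tested genes of the interferon-gamma response list were 1.5-fold higher in O-Ctrl than in Y-Ctrl, against 1.08% of all genes, with a median log2 ratio of 1.94. In O-Ex over O-Ctrl 6 of them were 1.5-fold lower over the whole section, against 0.291% of all genes, and 8 in the matched ratios, against 0.244%. The list summed to 28.4, 127 and 46.7 CPM. Over the whole section, Psmb8, Psmb9, Tap1 and H2-T23 thus had the same order of sections as this list. B2m, H2-K1, H2-D1, Tap2 and Tapbp were not highest in O-Ctrl there. For B2m, Tap2 and Tapbp the sign of O-Ex over O-Ctrl turned with the matching. Their log2 ratios were 0.02, 0.01 and 0.05 over the whole section and -0.005, -0.13 and -0.06 matched. T cell and NK cell genes were scarce. Only 2 of 13 reached the filter, and 35.0, 28.7 and 25.4 CPM of their sum of 39.3, 35.7 and 31.0 CPM came from Trbc2, a leading gene of layer 6 spots. Cd8a had 0 UMIs in Y-Ctrl, which allows up to 0.0490 CPM, and stood at 0.158 and 0.116 CPM in the O sections.

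The genes whose levels over the 45 points were most like B2m, among 8952 genes averaging 10 CPM or more, were Tnfrsf1a (Pearson r 0.908), Lyz2 (0.905), Srgn (0.904), Ptgds (0.902) and Efemp1 (0.889). For the sum of Psmb8, Psmb9 and Psmb10, in which Psmb10 has most of the counts, they were Kazald1 (0.757), H2-T22 (0.673), Cmbl (0.66), Mboat7 (0.642) and Wars (0.624). For the sum of Psmb8, Psmb9 and Tap1, formed after their values were seen, they included Gbp2 and AW112010 (both 0.893), Ifitm3 (0.871) and Srgn (0.865). These correlations describe points that share 3 libraries.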

How the data were processed

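The deposited matrices hold raw UMI counts per gene and barcode, with no normalization. Per the file headers, Space Ranger 2.0.0 wrote them, and the submitters' processing notes name mm10. The molecule is labelled nuclear RNA, but the protocol is one for tissue sections of 10 µm. All 4992 barcodes were deposited for each section; they are array positions, so all 4992 occur in all 3 libraries. Images and positions were not used here, and doublets were not called in spots.

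Counts were summed over spots with at least 3000 UMIs and divided by all UMIs of those spots (CPM). Spots were scored on 16 marker lists (mean z of log counts per 10000, z clipped at 5). A spot went to its highest score if that was at least 0.75, and 1078 spots lay within 0.1 of this minimum. The 15 groups with at least 50 spots in each section served for matched ratios; the striatum group had 27 spots in O-Ex. The top and bottom 25% of spots were taken by a marker list's share of UMIs. Named were all 10 members, list genes past 1.5-fold against O-Ctrl or otherwise the 2 with the most counts, and the 5 genes most like B2m and most like the sum of the inducible subunits; Nlrc5, Ifng, the interferon-gamma receptor genes, P2ry12, Cd8a and further genes named beside them were chosen after their values were seen. One item of the lists is not reported here. Members, lists and motifs were chosen with earlier results of these data known. The calling of ratios and the intervals were tested on simulated counts. Python 3.11.15, numpy 2.4.6, scipy 1.17.1 and, for an alternative scaling (TMM), edgeR 4.0.16 were used. Coordinates come from GENCODE for mm10 and promoters from RefSeq.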

Additional observations from a re-analysis of the deposited data

Results flagged for a closer look

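The classical heavy chains and B2m differed in opposite directions in different parts of the section, with intervals apart in each; the differences between groups of spots were not tested. For O-Ex over O-Ctrl, the log2 ratio of B2m was 0.18 in the upper cortical layers and -0.61 in the choroid plexus group, that of H2-D1 was 0.61 and -0.58, and that of H2-K1 was 0.72 in cortical layer 4 and -0.41 in the choroid plexus group. For O-Ex over Y-Ctrl, B2m had 0.85 in thalamus and -0.28 in the choroid plexus group, H2-D1 had 1.06 and -0.66, and H2-K1 had 1.58 in CA1 and -0.57 in the choroid plexus group.

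The choroid plexus group held 53, 69 and 207 spots (Y-Ctrl, O-Ctrl, O-Ex), and its own 6 markers summed to 191794, 152341 and 141733 CPM there. In these spots microglial markers summed to 365, 928 and 511 CPM, neuronal markers to 404, 466 and 1104 CPM, and the 6 markers of B and plasma cells to 12.5, 15.7 and 429.6 CPM. In the upper cortical layers, microglial markers summed to 408, 348 and 412 CPM, endothelial markers to 183, 123 and 163 CPM, blood markers to 1214, 519 and 1221 CPM and choroid plexus markers to 142, 121 and 693 CPM. In cortical layer 4, microglial markers summed to 367, 402 and 493 CPM, blood markers to 1183, 549.7 and 1261 CPM and choroid plexus markers to 153, 156 and 478 CPM. In thalamus, microglial markers summed to 367, 632 and 575 CPM, blood markers to 618, 529 and 2054 CPM and choroid plexus markers to 243, 151 and 459.9 CPM. In CA1, microglial markers summed to 389.7, 498 and 455 CPM, blood markers to 514, 494 and 1324 CPM and choroid plexus markers to 321, 237 and 692 CPM. The part of these cells in the ratios was not tested. No group of sections was large enough for a search for outlying samples.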

How the results depend on the processing

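In 13 alternatives (12 planned, and 1 added after the data were seen, which left out the spots of the 4 border groups), no called ratio of a member reversed. For O-Ctrl over Y-Ctrl all 70 whole-section and all 100 matched values kept their sign; for O-Ex over O-Ctrl 62 of 70 and 97 of 100 did, the exceptions being B2m, Tap2 and Tapbp, and for O-Ex over Y-Ctrl 69 of 70, the exception being Psmb10, and 100 of 100. Members 1.5-fold lower in O-Ex than in O-Ctrl over the whole section numbered 2 with TMM scaling, without mitochondrially encoded genes, with a pseudocount of 0.5 CPM and without border spots, and 0 with a pseudocount of 5 CPM or a filter of 10 CPM, which leaves out Psmb9, Tap1 and Tap2. Matched, they numbered 0 with that pseudocount or filter, and 1 at a score minimum of 0.5 or without the border groups. Members 1.5-fold higher in O-Ctrl than in Y-Ctrl numbered 3 and 2 over the whole section, and 2 and 2 matched, with that pseudocount and filter. The counts over all genes shrank too. Genes higher in O-Ctrl than in Y-Ctrl went from 138 to 63 and to 52 of 9013 over the whole section, and from 114 to 44 and 42 matched. Genes lower in O-Ex than in O-Ctrl went from 37 to 25 and 15, and from 31 to 17 and 10 matched. For O-Ex over Y-Ctrl, members 1.5-fold higher numbered 2 and 3 over the whole section with that pseudocount and filter. Matched, these members numbered 1 with that pseudocount and 5 without the border groups. All genes so called went from 450 to 173 and 181, and matched from 219 to 59 and to 196. Except where the filter or pseudocount shows it, the cause was not tested. TMM scaling changed the matched split of all genes for O-Ex over O-Ctrl from 66 higher and 31 lower to 45 and 36, and for O-Ex over Y-Ctrl from 219 and 39 to 150 and 62. Depth limits Psmb9 and Tap1 most, which rest on 155 to 487 UMIs a section. No paired analysis was possible because each group has 1 section.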

Other observations

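In barcodes with fewer than 3000 UMIs, which entered no comparison, B2m stood at 202 CPM [177 to 230], 290.1 [261 to 322] and 288 [260 to 318] in Y-Ctrl, O-Ctrl and O-Ex. H2-K1 stood at 35.3 CPM [25.3 to 47.9], 55.3 [42.9 to 70.05] and 73.5 [59.7 to 89.6] in those barcodes. The order was that of the spots used, but neighbouring intervals overlapped, and the barcodes come from the same sections.

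A UMI of Psmb8 was found in 9.80%, 21.8% and 15.9% of spots. With every spot thinned to 3000 UMIs the shares were 2.05% [1.60 to 2.59], 5.35% [4.62 to 6.14] and 3.87% [3.24 to 4.58], with exact 95% binomial intervals that cover counting error only.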
